A study of Homo sapiens and Mus musculus with 99 samples.

Results

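The genes described here are those of the mitochondrial genome, taken as every row placed on chromosome M (chrM) in the 13 deposited count tables. There were 37 such rows of 57820 in each of the 6 human tables and 37 of 55401 in each of the 7 mouse tables. Rows were chosen by their chromosome alone, and no count entered the choice of a row. The group as a whole was selected on earlier results of these data, namely the chrM share of the counts and the changes of these genes with BAPTA-AM, EGTA, extract and pore-forming proteins, so the tests on them describe these libraries and are no independent support. The human rows were 13 protein-coding genes, 2 ribosomal RNA (rRNA) genes and 22 transfer RNA (tRNA) genes. The mouse tables give gene IDs without names, so the mouse rows are given by ID and position, and were split by length into 15 rows of at least 100 bases and 22 rows shorter than that.

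The study asked how airway epithelial cells respond early to pore-forming proteins and to an extract of the fungus Alternaria alternata (ALT). RNA was sequenced from 99 libraries in 13 experiments, each with its own mock group treated with DPBS, a buffered salt solution. Of these, 51 were of human cells, from 24 groups of the lines NCI-H292 and NCI-H1437, both of non-small cell lung cancer origin, 4 h after treatment. The other 48 were of epithelial cells taken from mouse lungs 6 h after an intranasal dose, in 23 groups. Groups held 2 libraries, or 3 in the experiments named H1437-1 and Lung1.

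The human experiments tested the following groups. In H292-2 and H1437-3, cells received the protein pair Aeg-S/L with the calcium chelator BAPTA-AM, Aeg-S/L with the chelator EGTA, Aeg-S/L alone, or DPBS. No group received a chelator without Aeg-S/L, so an effect of a chelator on the cells and its effect on the response to Aeg-S/L cannot be told apart. The BAPTA-AM columns of H292-2 name only the chelator. The name of that table speaks of ALT and the sample labels of Aeg-S/L, and the labels were followed here. In H292-1 and H1437-4, cells received extracts labelled aegs KO ALT, aegl KO ALT or WT ALT, or DPBS. In H1437-1 the groups were ALT with an agent labelled Tra, ALT alone and DPBS, and the name of the table describes that agent as a MEK inhibitor. In H1437-2 the groups were Aeg-S/L with Tra, Aeg-S/L, Aeg-S alone, Aeg-L alone and DPBS.

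The mouse experiments were Lung1 (ALT or DPBS), Lung2 (Aeg-S, Aeg-L, Aeg-S/L or DPBS), Lung3 (aegs KO ALT, aegl KO ALT, WT ALT or DPBS) and Lung4 (the proteins Lysenin, PlyA2EryB and LSL, or DPBS). Mice of Lung4 carried the genotype label WT, and the labels of Lung1 to Lung3 give none. IL33KO1 (ALT, Aeg-S/L or DPBS) and IL33KO2 (Lysenin, PlyA2EryB, LSL or DPBS) used IL-33 KO mice in every group, controls included, and Rag2gc (Aeg-S/L or DPBS) used Rag2-/-; gc-/- mice in both groups. The labels give no age.

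The mitochondrial genome is a small circular molecule inside the organelle. Its 2 strands are copied into long transcripts that are cut into the separate rRNAs, mRNAs and tRNAs, with tRNAs lying between many of the other genes. The mRNAs encode core subunits of respiratory chain complexes I, III and IV and of the ATP synthase, and all other subunits are encoded in the nucleus. In lung epithelial cells, as elsewhere, mitochondria also take up calcium that enters the cytosol. BAPTA-AM crosses the cell membrane and binds calcium inside cells, whereas EGTA binds calcium outside them.

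Neighbouring mitochondrial genes can share bases, and the sequences shown here mark where this limits what a count can mean. In the human tables MT-ATP8, a subunit of the ATP synthase, spans chrM:8366-8572 on the plus strand and shares its last 46 bases (22.2% of its length) with the start of MT-ATP6, another subunit of the same enzyme, which starts at base 8527. MT-ND4L and MT-ND4, both subunits of complex I, share 7 bases, from 10760 to 10766 on the plus strand. The bases were read from GENCODE 29 transcripts, whose positions equal those of the deposited tables for all 37 human genes. Capitals mark the shared bases, and each sequence runs 5′ to 3′.
MT-ATP8, whole: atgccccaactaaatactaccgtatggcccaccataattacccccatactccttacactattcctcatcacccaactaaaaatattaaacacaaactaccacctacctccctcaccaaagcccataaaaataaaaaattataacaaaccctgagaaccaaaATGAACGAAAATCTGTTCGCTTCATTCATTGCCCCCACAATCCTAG
MT-ATP6, first 60 bases: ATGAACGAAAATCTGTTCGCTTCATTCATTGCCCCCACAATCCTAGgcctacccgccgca
MT-ND4L, last 60 bases: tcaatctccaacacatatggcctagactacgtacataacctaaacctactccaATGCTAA
MT-ND4, first 60 bases: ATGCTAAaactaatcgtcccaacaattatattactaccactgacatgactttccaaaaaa

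A fragment that touches the capitals overlaps both genes of a pair, and no source used here says how the authors' counting treated such fragments. The values of MT-ATP8, with 18 to 1261 counts per library, are therefore uncertain. The other sequence that a result turns on is MT-TP, the proline tRNA, at chrM:15956-16023 on the minus strand, the only human tRNA row with counts in every library; it carries no capitals.
MT-TP, whole: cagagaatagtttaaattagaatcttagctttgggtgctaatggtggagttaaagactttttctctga

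Libraries held 32.4 M to 53.2 M counted fragments (M, 1e+06) in human cells and 29.6 M to 66.3 M in mouse cells. The chrM rows took 66699 to 2104674 counts per human library and 761333 to 2564951 per mouse library. As a share of all counts this was 0.19% to 5.66% (median 2.24%) in human and 2.40% to 5.83% (median 3.32%) in mouse libraries. Epithelial markers summed to 2369 to 3853 CPM (counts per M of all counts) in NCI-H1437 and 3062 to 3847 CPM in NCI-H292, and the 4 leukocyte markers to at most 1.3 and 0.475 CPM. The other lists were not all near 0: neutrophil markers summed to 70.8 to 803 CPM in NCI-H1437 and 73.1 to 165 CPM in NCI-H292, nearly all of it S100A9, which epithelial cells also express. Fibroblast markers summed to 54.3 to 218 CPM in NCI-H1437 and 19.2 to 51.8 CPM in NCI-H292, nearly all of it COL1A1, with COL3A1 at 0 and at most 0.0606 CPM. Endothelial markers summed to 1.59 to 8.77 CPM in NCI-H1437 and 52.1 to 75.6 CPM in NCI-H292, nearly all of it CDH5, with KDR at most 0.158 and 0.364 CPM. Their part in the results was not tested. Some libraries stood apart from their group on chrM. The first aegl KO ALT library of H292-1 had a chrM share of 0.554%, against 2.26% in its partner. The second Aeg-S library of H1437-2 had 5.66%, against 3.35% in its partner. The DPBS libraries of H1437-4 (1.58% and 2.83%), of H1437-1 (3.26%, 1.79% and 1.64%) and of IL33KO1 (5.83% and 3.06%) also lay far apart.

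Per length, MT-CO2, a subunit of cytochrome c oxidase (complex IV), was the highest human row, with a median of 4220 CPM per kilobase over the 51 libraries. MT-CO1, the catalytic subunit of complex IV, followed with 2784 CPM per kilobase. MT-ATP6 (2363), MT-CO3 of complex IV (2062), MT-ND2 of complex I (1965), MT-ND3 of complex I (1650) and MT-ND4 (1596) came next, in median CPM per kilobase. MT-RNR2, the large mitochondrial rRNA, had 1452, and MT-RNR1, the small one, had 357 CPM per kilobase. Between them stood MT-CYB, the mitochondrial subunit of complex III (940), MT-ND4L (780), MT-ND1 of complex I (694), MT-ND6 of complex I (368) and MT-ND5 of complex I (362). MT-TP had 207 CPM per kilobase and MT-ATP8 the lowest median, 23.0. The 2 rRNA rows were therefore not the most counted per length, and the labels name total RNA but no depletion or selection step.

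The tRNA rows were nearly empty. MT-TP had 7 to 1584 counts (median 490) and was present in all 51 human libraries. MT-TF, the phenylalanine tRNA, had at most 7 counts and was above 0 in 21 libraries. MT-TQ, the glutamine tRNA, was above 0 in 3 libraries and MT-TE, the glutamate tRNA, in 2, and the other 18 human tRNA rows were at 0 in all 51. In mouse, the short row ENSMUSG00000064372.1 had 332 to 1473 counts in all 48 libraries, and the few others that were ever above 0 were so in 3 libraries at most. Of the 37 human rows, 16 (the 13 mRNAs, the 2 rRNAs and MT-TP) passed the filter on low counts in every human experiment, and 16 of 37 mouse rows did so in every mouse experiment.

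The lowest chrM shares of any library in the series were those with BAPTA-AM in H292-2. In H292-2 the share was 0.190% and 0.217% with Aeg-S/L and BAPTA-AM, 1.40% and 1.06% with Aeg-S/L and EGTA, 2.05% and 1.82% with Aeg-S/L alone, and 2.09% and 2.41% with DPBS. The mean with BAPTA-AM, 0.203% ± 0.0195 (SD, n = 2), was 9.52 times lower than with Aeg-S/L alone and 11.1 times lower than with DPBS. In H1437-3 the share was 1.15% and 0.796% with BAPTA-AM, 2.29% and 2.34% with EGTA, 3.26% and 3.45% with Aeg-S/L alone, and 2.39% and 1.98% with DPBS. The BAPTA-AM libraries lay below every other library of their experiment in both lines, and the mean in H1437-3, 0.974% ± 0.253 (SD, n = 2), was 3.44 times lower than with Aeg-S/L alone. In H292-1, which had no chelator, the first aegl KO ALT library (0.554%) lay below both BAPTA-AM libraries of H1437-3, and the WT ALT libraries (1.02% and 0.986%) lay between them. No test was made on shares, since an exact permutation test of 2 libraries against 2 cannot go below p = 0.33. In bulk RNA, fewer cells of a kind and less RNA per cell cannot be told apart, and a share can also be low because nuclear transcripts are high.

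**Figure D1:**
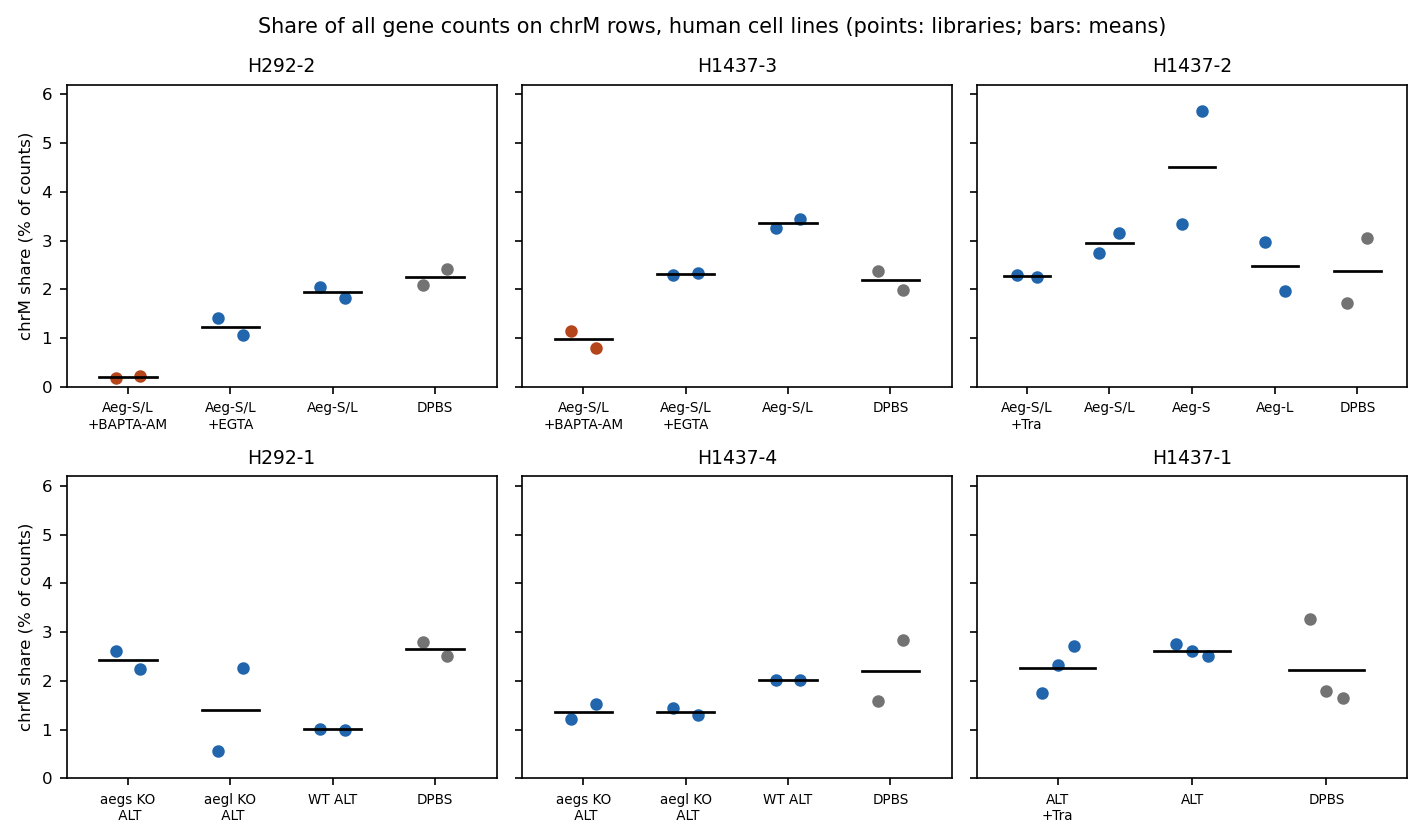
Share of all counts on chrM rows (percent, y axis) in each human library, by group (x axis), with 1 panel per experiment; points are libraries and bars are group means. The BAPTA-AM libraries, at 0.190% and 0.217% in H292-2 and at 1.15% and 0.796% in H1437-3, lie below all other libraries of their panels.

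With BAPTA-AM, all 16 chrM genes tested fell in both lines, against Aeg-S/L alone as well as against DPBS. Changes were tested gene by gene with edgeR's quasi-likelihood test over all genes of a table, with Benjamini-Hochberg adjustment, and genes with an adjusted p under 0.05 count as called. These p-values measure the spread between libraries; the study states at least 2 biological replicates per condition. Against Aeg-S/L alone, 20.3% of all genes tested fell in H292-2 and 16.1% in H1437-3, beside 16 of 16 chrM genes in each. Against DPBS the background was 19% in H292-2 and 19.1% in H1437-3, again beside 16 of 16. The median log2 change of the chrM genes of at least 100 bases, against Aeg-S/L alone, was -3.62 in H292-2 and -1.93 in H1437-3, where that of all genes was 0.02 and 0.01. Each of these counts was also 16 when any library was left out in turn, except against DPBS in H1437-3, where it was 15 or 16.

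Against Aeg-S/L alone, the rRNAs showed the steepest falls among the long rows in both lines. Against DPBS this differed by line. In H292-2 MT-RNR1 had the smallest fall of the 16 genes, by 2.39 on the log2 scale. In H1437-3 MT-RNR2 had the steepest fall among the long rows, by 2.17, and MT-RNR1 fell by 1.43. In H292-2, MT-RNR2 had 68.4 and 74.5 CPM per kilobase with Aeg-S/L and BAPTA-AM, against 1497 and 1478 with Aeg-S/L alone, and 622 and 651 with DPBS. The BAPTA-AM libraries were far below both other groups. Its log2 change against Aeg-S/L alone was -4.56 ± 0.06 (SE; edgeR, adjusted p = 2.49e-20), which is 23.7-fold lower. MT-RNR1 had 42.5 and 51.4 CPM per kilobase with BAPTA-AM, against 975 and 958 with Aeg-S/L alone and 229 and 255 with DPBS, and was 23.4-fold lower than with Aeg-S/L alone. In H1437-3, MT-RNR2 had 413 and 336 CPM per kilobase with BAPTA-AM, against 3472 and 3420 with Aeg-S/L alone and 1731 and 1589 with DPBS, a log2 change of -3.33 ± 0.08 against Aeg-S/L alone (edgeR, adjusted p = 2.44e-14). MT-RNR1 had 116 and 122 CPM per kilobase with BAPTA-AM, against 726 and 705 with Aeg-S/L alone and 328 and 304 with DPBS. No BAPTA-AM library overlapped another group for either rRNA.

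The mRNAs fell by differing amounts. The catalytic complex IV subunit MT-CO1 had 247 and 298 CPM per kilobase with BAPTA-AM in H292-2, against 1723 and 1488 with Aeg-S/L alone and 3032 and 3691 with DPBS. It was 6.70-fold lower than with Aeg-S/L alone (log2 change -2.74 ± 0.12; edgeR, adjusted p = 5.25e-13), the smallest fall among the 16 in that comparison. Its complex IV partner MT-CO3 had 88.6 and 97.4 CPM per kilobase with BAPTA-AM, against 1466 and 1262 with Aeg-S/L alone and 1624 and 2039 with DPBS, and was 16.7-fold lower than with Aeg-S/L alone. MT-CO2 was 13.0-fold lower. The complex I genes fell by 3.07 (MT-ND2) to 3.95 (MT-ND3) on the log2 scale, MT-CYB of complex III by 3.62, and MT-ATP6 and MT-ATP8 by 2.96 and 3.19. The BAPTA-AM libraries did not overlap those with Aeg-S/L alone for any of these genes. The share of all genes without such overlap was not counted.

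In H1437-3 the same contrast gave smaller falls. MT-CO1 had 1438 and 964 CPM per kilobase with BAPTA-AM, against 2875 and 2982 with Aeg-S/L alone and 3388 and 2915 with DPBS. Its log2 change against Aeg-S/L alone was -1.41 ± 0.12 (edgeR, adjusted p = 1.96e-07). The complex I genes fell by 1.56 (MT-ND2) to 2.15 (MT-ND3) on the log2 scale, MT-CYB by 1.99, MT-CO2 by 1.99, MT-CO3 by 1.73, MT-ATP6 by 1.66 and MT-ATP8 by 1.35. MT-ND2 and MT-ND3 were thus the complex I genes with the smallest and the largest fall in each line. In a joint fit of the tables, the change with BAPTA-AM against Aeg-S/L was lower in H292-2 than in H1437-3 for all 16 genes, where 11% of all genes differed in either direction. Line and experiment cannot be told apart in that fit.

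MT-ND6 and MT-TP, the human rows on the minus strand that were counted in every library, fell as well. MT-ND6 had 19.1 and 18.5 CPM per kilobase with BAPTA-AM in H292-2, against 223 and 189 with Aeg-S/L alone and 387 and 451 with DPBS. Its fall was 22.7-fold against DPBS in H292-2 and 3.71-fold in H1437-3. MT-TP had 7 and 7 counts with BAPTA-AM in H292-2, against 241 and 281 with Aeg-S/L alone and 456 and 440 with DPBS, a log2 change of -5.44 ± 0.27 against Aeg-S/L alone (edgeR, adjusted p = 3.12e-12). The BAPTA-AM values are near the counting limit. No source used here says whether counting used the strand, so reads of these genes and of RNA from the opposite strand cannot be told apart.

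With EGTA, 12 of 16 chrM genes fell and 0 rose against Aeg-S/L alone in each line, where 21.7% of all genes fell in H292-2 and 14.8% in H1437-3. MT-RNR1 had 226 and 192 CPM per kilobase with EGTA in H292-2, against 975 and 958 with Aeg-S/L alone, and 229 and 255 with DPBS. The EGTA libraries lay far below those with Aeg-S/L alone, with a log2 change of -2.33 ± 0.08 (edgeR, adjusted p = 3.24e-14). They lay only slightly below those with DPBS, and MT-RNR1 was not called in that comparison. In H1437-3 it had 357 and 367 CPM per kilobase with EGTA, against 726 and 705 with Aeg-S/L alone and 328 and 304 with DPBS, above DPBS and below Aeg-S/L alone, and its log2 change against Aeg-S/L alone was -1.07. MT-RNR2 fell by 1.54 on the log2 scale in H292-2 and by 0.91 in H1437-3.

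MT-CO1 was not called with EGTA in either line. In H292-2 it had 2012 and 1461 CPM per kilobase with EGTA, against 1723 and 1488 with Aeg-S/L alone, which overlap, and its log2 change was -0.01 (edgeR, adjusted p = 0.975). In H1437-3 it had 3292 and 3472 CPM per kilobase with EGTA, against 2875 and 2982 with Aeg-S/L alone, and its log2 change was 0.12 (edgeR, adjusted p = 0.494). MT-ATP8 and MT-ND6 were the other genes not called in both lines, at log2 changes of 0.40 and 0.15 in H292-2 and of 0.00 and -0.31 in H1437-3. MT-TP (-0.07) in H292-2 and MT-ND5 (-0.34) in H1437-3 completed the 4 uncalled genes of each line.

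EGTA was also set against DPBS. In H292-2, 14 of 16 chrM genes were lower with EGTA than with DPBS, beside 14.4% of all genes, and 0 were higher. MT-ND4 had the largest fall, 1.43 on the log2 scale, followed by MT-ND4L (1.14), MT-CO2 (1.04) and MT-CO1 (0.91). MT-RNR1 was not called there, at a log2 change of -0.17 (edgeR, adjusted p = 0.119). In H1437-3, 1 of 16 was higher with EGTA than with DPBS, beside 4.19% of all genes, and 0 were lower, beside 0.988%. That gene was MT-RNR1, with a log2 change of 0.22 ± 0.06 (edgeR, adjusted p = 0.0347), and 0 genes were called without either EGTA library or the second DPBS library, and 2 without the first DPBS library. Whether the lines differ in EGTA against DPBS was not tested.

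**Figure D2:**
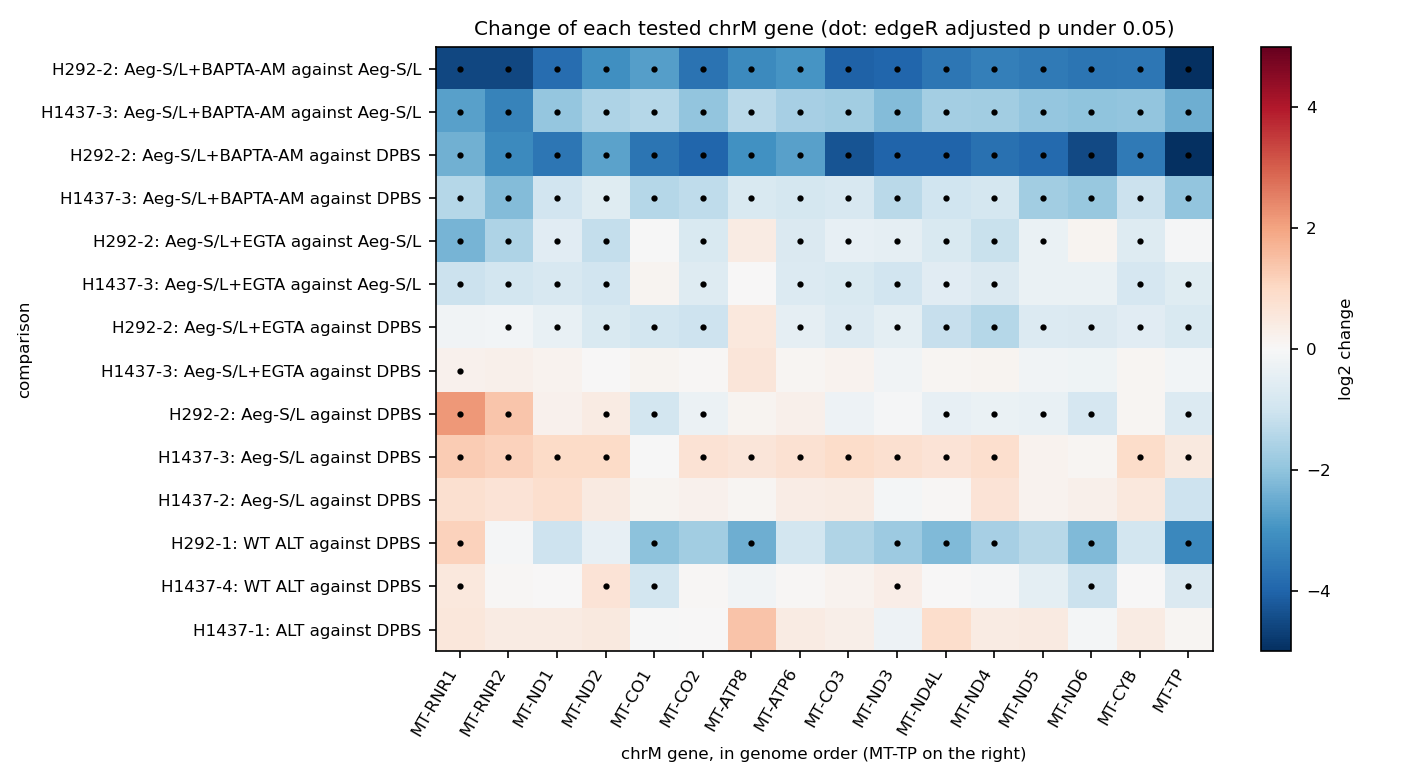
Heat map of the log2 change (colour) of the 16 tested human chrM genes (columns) in 14 comparisons (rows): with BAPTA-AM, with EGTA, with Aeg-S/L and with extract, with a dot where edgeR's adjusted p was under 0.05. The BAPTA-AM rows are low for every gene, and in the rows of Aeg-S/L against DPBS of H292-2 and H1437-3 the rRNA columns MT-RNR1 and MT-RNR2 are the highest.

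With Aeg-S/L and no chelator the rRNAs rose in both lines, and in a joint fit of H292-2 and H1437-3 the change of 12 of 16 chrM genes differed between them (1 higher and 11 lower in H292-2), beside 14.3% of all genes. In H1437-3, 13 of 16 chrM genes rose and 0 fell against DPBS, beside 15.4% of all genes rising. In H292-2, 3 rose and 7 fell, beside 22.1% and 21.1% of all genes. The number called in H292-2 was 6 without the second DPBS library and 7 to 11 without any other. MT-RNR1 had 975 and 958 CPM per kilobase with Aeg-S/L in H292-2, against 229 and 255 with DPBS, and rose 4.47-fold (log2 change 2.16 ± 0.08; edgeR, adjusted p = 5.90e-14). MT-RNR2 rose 2.62-fold there. In H1437-3 MT-RNR1 rose 2.43-fold (log2 change 1.28 ± 0.06; edgeR, adjusted p = 3.76e-11) and MT-RNR2 2.23-fold, with no overlap between the libraries given above. The rise of MT-RNR1 was larger in H292-2 by 0.89 ± 0.11 on the log2 scale in the joint fit.

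Among the mRNAs, MT-CO1 and MT-ND6 had the largest falls in H292-2. MT-CO1 had 1723 and 1488 CPM per kilobase with Aeg-S/L in H292-2, against 3032 and 3691 with DPBS, and fell 1.87-fold (log2 change -0.90 ± 0.11; edgeR, adjusted p = 2.75e-06). MT-ND6 had 223 and 189 CPM per kilobase with Aeg-S/L, against 387 and 451 with DPBS, and fell by 0.86 on the log2 scale. Neither overlapped. MT-CO2, MT-ND4L, MT-ND4, MT-ND5 and MT-TP fell by 0.27 to 0.69, and MT-ND2 was the only mRNA that rose, by 0.41. In H1437-3 the 3 genes not called were MT-CO1 (log2 change -0.00; edgeR, adjusted p = 0.986), MT-ND5 (0.18) and MT-ND6 (0.12), while MT-ND2 rose by 0.97, MT-ND1 by 0.96, MT-CYB by 0.92 and MT-CO3 by 0.92.

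The make-up of the chrM counts, which does not depend on the nuclear transcripts, showed a lower share of MT-CO1 with Aeg-S/L in both lines. Such a share is also lower where other chrM genes rise. Against DPBS, MT-CO1 itself fell in H292-2 and was not called in H1437-3, as given above. MT-CO1 held 12.9% and 12.6% of the chrM counts with Aeg-S/L in H292-2, against 22.4% and 23.6% with DPBS. In H1437-3 it held 13.6% and 13.3% with Aeg-S/L, against 21.9% and 22.7% with DPBS. With BAPTA-AM it held 20.1% and 21.1% in H292-2 and 19.2% and 18.7% in H1437-3, and with EGTA 22.1% and 21.3% in H292-2 and 22.1% and 22.8% in H1437-3. The libraries with Aeg-S/L alone were thus lower than all others of their experiment, and the EGTA libraries were close to DPBS. The BAPTA-AM libraries lay above those with Aeg-S/L alone and below those with DPBS in both lines. MT-ND2 went the other way and held 15.9% and 15.0% with BAPTA-AM and 11.8% and 12.3% with Aeg-S/L in H292-2, against 9.18% and 8.29% with DPBS.

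The rRNAs together held 7.76% and 7.60% of the chrM counts with BAPTA-AM, 7.75% and 9.83% with EGTA and 15.9% and 17.7% with Aeg-S/L alone in H292-2, against 5.68% and 5.22% with DPBS. In H1437-3 they held 6.55% and 8.04% with BAPTA-AM, 15.0% and 14.2% with EGTA and 18.7% and 17.4% with Aeg-S/L alone, against 12.6% and 14.0% with DPBS. The rRNA share with BAPTA-AM was above DPBS in H292-2 and below DPBS in H1437-3. When each library was scaled to its own chrM total, a check added after the values had been seen, MT-RNR1 fell with BAPTA-AM against Aeg-S/L by 1.12 ± 0.22 on the log2 scale in H292-2 and by 0.75 ± 0.25 in H1437-3. MT-RNR2 fell by 1.13 ± 0.21 and by 1.40 ± 0.21, and MT-CO1 rose by 0.69 ± 0.20 and by 0.49 ± 0.19, each SE with edgeR's adjusted p under the threshold. That adjustment ran over all genes. On this scale 15999 of 16380 genes were called in H292-2 and 15391 of 16904 in H1437-3, so it was a mild one. Most of the 15 long rows, 9 in H292-2 and 12 in H1437-3, were not called on that scale.

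**Figure D3:**
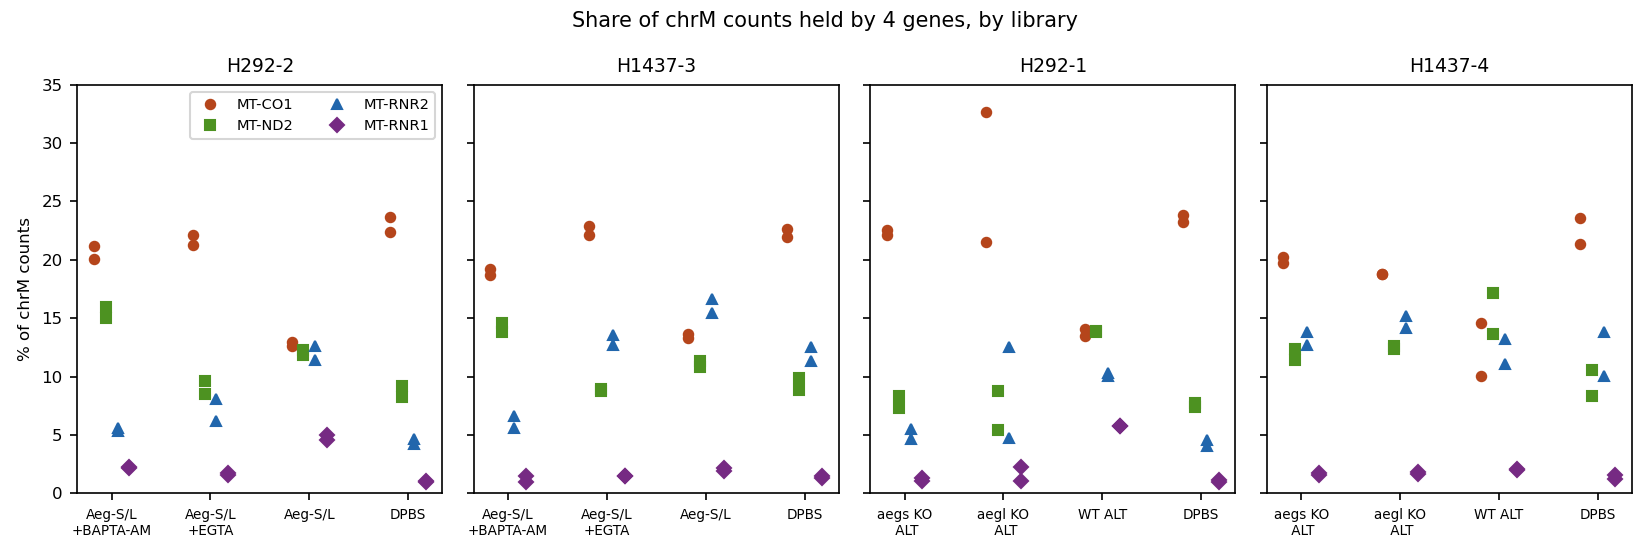
Percent of the chrM counts (y axis) held by MT-CO1, MT-ND2, MT-RNR2 and MT-RNR1 in each library (points) by group (x axis), in the experiments H292-2, H1437-3, H292-1 and H1437-4. MT-CO1 is lowest with Aeg-S/L alone (12.9% and 12.6% in H292-2) or WT ALT (13.5% and 14.1% in H292-1), against 22.4% and 23.6%, and 23.2% and 23.8%, with DPBS.

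WT extract gave a like pattern for MT-CO1, MT-ND6 and MT-RNR1. In H292-1, the chrM share was 1.02% and 0.986% with WT ALT, 2.62% and 2.24% with aegs KO ALT, and 0.554% and 2.26% with aegl KO ALT, against 2.79% and 2.51% with DPBS. MT-CO1 had 891 and 898 CPM per kilobase with WT ALT, against 4206 and 3874 with DPBS, and was 4.18-fold lower (log2 change -2.06 ± 0.34; edgeR, adjusted p = 0.00188). MT-RNR1 had 619 and 599 CPM per kilobase with WT ALT, against 329 and 264 with DPBS, and was 2.22-fold higher (edgeR, adjusted p = 0.00931), a call lost without the first WT ALT library or the second DPBS library. The WT ALT libraries were the lowest of the experiment for MT-CO1 and the highest for MT-RNR1. In all, 1 of 16 chrM genes rose and 7 fell, beside 11.6% and 11.3% of all genes. The others that fell were MT-ND6 (4.61-fold lower), MT-ATP8, MT-ND3, MT-ND4L, MT-ND4 and MT-TP. Only 3 were called without the first or the second WT ALT library or the first DPBS library, and 6 without the second DPBS library.

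Set against WT ALT in H292-1, 6 chrM genes rose and 1 fell with aegs KO ALT, beside 13.2% and 13.4% of all genes. MT-CO1 had 3817 and 3209 CPM per kilobase with aegs KO ALT, against 891 and 898 with WT ALT, and was 3.61-fold higher (edgeR, adjusted p = 0.00294). MT-RNR1 fell by 1.10 on the log2 scale, at 364 and 256 CPM per kilobase with aegs KO ALT. With aegl KO ALT, 2 genes rose and 1 fell against WT ALT, beside 9.85% and 9.13% of all genes, and MT-CO1 had 1175 and 3152 CPM per kilobase. For aegs KO ALT the count was 3 without the first and 2 without the second WT ALT library. For aegl KO ALT it was 12 without its first library, which stood apart, 10 without its second, and 1 without either WT ALT library. Against DPBS, 0 chrM genes were called for aegs KO ALT (beside 0% of all genes) and 0 for aegl KO ALT (beside 0.0963% rising and 0.0241% falling). The unadjusted p was under 0.05 for 0 and 6 genes, and DESeq2 called 0 in each. Without the second aegl KO ALT library, 10 were called for aegl KO ALT against DPBS.

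In H1437-4 the chrM share was 1.21% and 1.52% with aegs KO ALT, 1.45% and 1.29% with aegl KO ALT and 2.01% and 2.02% with WT ALT, against 1.58% and 2.83% with DPBS. The DPBS libraries spanned the WT ALT libraries. With WT ALT against DPBS, 3 chrM genes rose and 3 fell, beside 15.8% and 17.1% of all genes. MT-ND2 had 3319 and 2641 CPM per kilobase with WT ALT, against 1595 and 2268 with DPBS, and rose by 0.70 ± 0.12 on the log2 scale (edgeR, adjusted p = 0.000313). MT-RNR1 rose by 0.53, with 0.81 without the first and 0.29 without the second DPBS library, and MT-ND3 by 0.34. MT-CO1 had 1309 and 1908 CPM per kilobase with WT ALT, against 2187 and 4317 with DPBS, and fell by 0.93 ± 0.22 (edgeR, adjusted p = 0.00338). Without the second DPBS library the change of MT-CO1 was -0.37 and was not called. MT-ND6 fell by 1.07 and MT-TP by 0.71. The number called was 12 without the first and 10 without the second DPBS library.

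The KO extracts of H1437-4 gave lower chrM values than WT ALT. For each of them 11 of 16 chrM genes fell and 0 rose, beside 14.2% (aegs KO ALT) and 14.5% (aegl KO ALT) of all genes falling. MT-CO3 fell by 1.11 with aegs KO ALT and by 1.17 with aegl KO ALT, MT-ND2 by 1.02 and 0.93, and MT-RNR1 by 0.97 and 0.90, on the log2 scale. MT-CO1 was not called, at 0.06 and -0.03. These counts were 4 without the first aegs KO ALT library and 4 without the second aegl KO ALT library. In a joint fit with H292-1, the change with aegs KO ALT against WT ALT was higher in H292-1 for 8 of 16 genes, beside 7.79% of all genes differing, and 0 differed for aegl KO ALT (6 at an unadjusted p under 0.05), beside 5.79%. Against DPBS, 1 gene fell for aegs KO ALT (MT-RNR2, by 0.47) and 1 for aegl KO ALT (MT-ND5, by 0.97), beside 0.945% and 0.598% of all genes. Each of these counts was 13 without the first DPBS library and 0 without any of the others.

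As a share of the chrM counts, MT-CO1 was lower with WT ALT in H1437-4 too, at 10.0% and 14.6%, against 21.4% and 23.5% with DPBS. It held 19.7% and 20.2% with aegs KO ALT and 18.8% and 18.8% with aegl KO ALT. MT-ND6 held 0.364% and 0.502% with WT ALT, against 0.871% and 0.893% with DPBS. In H292-1 it held 0.500% and 0.494% with WT ALT, against 0.972% and 0.899% with DPBS. The WT ALT libraries were the lowest for MT-CO1 in H1437-4 and in H292-1. In H1437-1, MT-CO1 held 13.0% to 16.0% with ALT and 13.6% to 23.4% with DPBS, which overlap. MT-ND6 held 0.823% to 1.04% with ALT and 0.876% to 1.40% with DPBS there, which overlap as well. On the chrM-only scale the lowest edgeR adjusted p was 0.118 in H292-1 (MT-RNR1, a log2 change of 2.44 for WT ALT against DPBS) and 0.071 in H1437-4 (MT-TP, 0.97 for aegs KO ALT against WT ALT).

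The remaining human experiments gave no call. In H1437-1 the chrM share was 1.74%, 2.33% and 2.71% with ALT and Tra and 2.75%, 2.60% and 2.50% with ALT, against 3.26%, 1.79% and 1.64% with DPBS. The groups overlap. Of 16 chrM genes, 0 were called by edgeR for ALT against DPBS (beside 4.71% of all genes, 3.59% rising), for ALT with Tra against DPBS (0.283%) and for ALT with Tra against ALT (5.08%, with 1.33% rising and 3.75% falling). The unadjusted p was under 0.05 for 1, 0 and 2 genes, and DESeq2 called 1, 0 and 1. For ALT against DPBS, 6 were called without the first DPBS library.

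In H1437-2 the chrM share was 2.29% and 2.26% with Aeg-S/L and Tra, 2.75% and 3.16% with Aeg-S/L, 3.35% and 5.66% with Aeg-S and 2.98% and 1.96% with Aeg-L, against 1.72% and 3.05% with DPBS. No chrM gene was called by edgeR in the 5 comparisons. The share of all genes called was 0% for Aeg-S, 0% for Aeg-L and 6.72% for Aeg-S/L (3.63% rising and 3.1% falling) against DPBS. It was 0.495% for Aeg-S/L with Tra against DPBS (0.478% rising and 0.0177% falling) and 1.27% against Aeg-S/L. The unadjusted p was under 0.05 for 15, 0, 3, 1 and 2 chrM genes, and DESeq2 called 0, 0, 1, 0 and 0. Without the first Aeg-S library 15 were called for Aeg-S, which then rested on the library with 5.66%. In H1437-3, the same line, 13 chrM genes rose with Aeg-S/L, and whether the experiments differ was not tested.

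Nuclear genes of the mitochondrion were measured in the same libraries. Of 78 nuclear subunits of the respiratory chain and ATP synthase, 6 rose and 15 fell with BAPTA-AM against Aeg-S/L alone in H292-2 (17.6% and 20.3% of all genes), and 9 rose and 1 fell in H1437-3 (11.6% and 16.1%). In the same comparisons all 16 chrM genes fell. NDUFV3 of complex I and UQCRFS1, the iron-sulphur protein of complex III, rose by 0.89 and 0.71 on the log2 scale in H292-2 and by 0.60 and 0.36 in H1437-3. With EGTA against Aeg-S/L alone, 5 rose and 64 fell in H292-2 (23.2% and 21.7% of all genes), with a median log2 change of -0.44, and 2 rose and 46 fell in H1437-3 (15.8% and 14.8%). NDUFA1 and NDUFC2 of complex I fell by 0.85 and 0.83 in H292-2, and ATP5F1E of the ATP synthase by 0.82.

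Of 75 mitochondrial ribosomal protein genes, 26 rose and 1 fell with BAPTA-AM against Aeg-S/L alone in H292-2, and 20 rose and 1 fell in H1437-3, beside the same backgrounds. MRPL34, a protein of the large ribosomal subunit, rose by 0.68 in H1437-3. Among the genes for transcribing mitochondrial DNA and processing its RNA, 16 of 28 rose and 5 fell in H292-2 and 10 of 29 rose and 3 fell in H1437-3. TFB1M, an rRNA methyltransferase of mitochondria, had 11.5 CPM with BAPTA-AM, against 5.16 CPM with Aeg-S/L alone, a log2 change of 1.15 ± 0.16 (edgeR, adjusted p = 6.60e-06), and rose by 0.63 in H1437-3. POLRMT, the mitochondrial RNA polymerase, had 122 CPM with BAPTA-AM, against 76.0 CPM with DPBS, in H292-2. PPRC1, a coactivator of mitochondrial gene programmes, had 189 CPM with Aeg-S/L, against 61.1 CPM with DPBS, in H292-2 and rose in H1437-3 as well, by 0.84 on the log2 scale. Nuclear copies of mitochondrial DNA moved with the chrM rows: 4 of 4 tested fell with BAPTA-AM against Aeg-S/L alone in each line, and since they are near-identical to chrM genes their counts are uncertain.

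In mouse lung epithelial cells the mean chrM share of a treated group was 0.731 (ALT in Lung1) to 1.32 times (PlyA2EryB in Lung4) that of its DPBS group. Of 16 comparisons with DPBS, the libraries of the groups did not overlap in 7, with the treated group higher in 6 and lower in 1. Random splits of 2 libraries against 2 leave no overlap at a rate of 0.33, and those of 3 against 3, as in Lung1, at a rate of 0.1. Comparisons of an experiment also share DPBS libraries. The count alone therefore shows no effect of treatment. In Lung1 the share was 2.70%, 2.44% and 2.81% with ALT, against 3.18%, 3.42% and 4.28% with DPBS. In Lung4 it was 4.34% and 4.11% with PlyA2EryB, 3.28% and 3.35% with Lysenin and 3.14% and 3.21% with LSL, against 2.88% and 3.54% with DPBS. In IL33KO2 it was 4.26% and 4.36% with PlyA2EryB, 3.51% and 3.48% with Lysenin and 3.90% and 3.84% with LSL, against 3.46% and 3.55% with DPBS. PlyA2EryB was the highest group in both experiments, without overlap with any other group of its experiment.

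**Figure D4:**
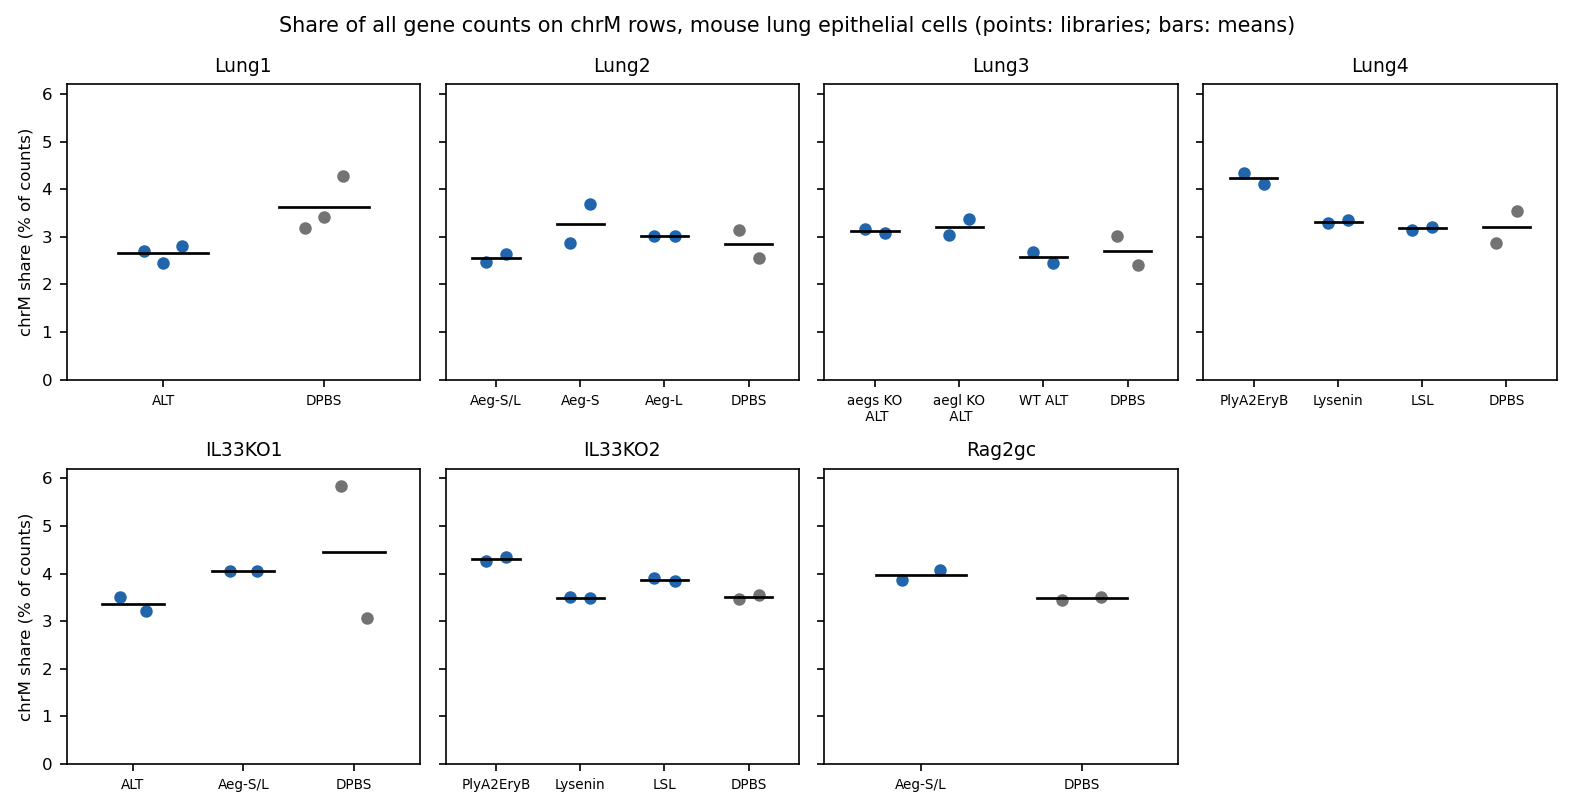
Share of all counts on chrM rows (percent, y axis) in each mouse library, by group (x axis), with 1 panel per experiment; points are libraries and bars are group means. PlyA2EryB lies above every other group in Lung4 (4.34% and 4.11%) and in IL33KO2 (4.26% and 4.36%), and ALT lies below DPBS in Lung1.

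Per length, ENSMUSG00000064351.1 at chrM:5328-6872 was the highest mouse row, with a median of 8505 CPM per kilobase, and held 33.0% to 57.0% of the chrM counts of a library. ENSMUSG00000064370.1 at chrM:14145-15288 (4710), ENSMUSG00000064341.1 at chrM:2751-3707 (3320), ENSMUSG00000064345.1 at chrM:3914-4951 (2561) and ENSMUSG00000064367.1 at chrM:11742-13565 (2249 CPM per kilobase) followed. The rows between bases 7013 and 10173 were low. Their medians were 102 (ENSMUSG00000064354.1), 6.69 (ENSMUSG00000064356.3), 88.4 (ENSMUSG00000064357.1), 77.6 (ENSMUSG00000064358.1), 15.3 (ENSMUSG00000064360.1) and 41.7 CPM per kilobase (ENSMUSG00000065947.3). No source used here says how fragments with several matching places were counted, so the values of these rows are uncertain. All positions are those of the deposited tables, for which the submitters name mm10.

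With ALT in Lung1, 8 of 16 chrM rows fell and 0 rose, where 58.6% of all genes were called and 30.1% fell. ENSMUSG00000064339.1 at chrM:1094-2675 averaged 692 ± 91.3 CPM with ALT and 1058 ± 111 CPM with DPBS (SD, n = 3 each), with no overlap and a log2 change of -0.61 ± 0.11 (edgeR, adjusted p = 0.0003). ENSMUSG00000064351.1 fell by 0.49 and ENSMUSG00000064370.1 by 0.34, a call lost without the second ALT or the third DPBS library. The steepest fall was that of ENSMUSG00000064358.1, by 1.39, and by 0.75 without the first DPBS library. In Lung3, ENSMUSG00000064339.1 was the only chrM row called with WT ALT against DPBS (log2 change -0.53, beside 34.2% of all genes called and 18.8% falling) and with aegs KO ALT (0.64, beside 15.7% rising) and aegl KO ALT (0.60, beside 15.2% rising) against WT ALT. Leaving out any library gave 0 calls for each KO extract against WT ALT. For WT ALT against DPBS it gave 0 calls without either WT ALT library and 5 without either DPBS library.

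No chrM row was called by edgeR in Lung2, nor for a KO extract against DPBS in Lung3. The share of all genes called was 38.8% for Aeg-S/L, with 19.1% rising and 19.7% falling, and 0% for Aeg-S, for Aeg-L and for both KO extracts. In each of these comparisons 0 rows had an unadjusted p under 0.05, and DESeq2 called 0 as well. Without the first DPBS library of Lung3, 4 rows were called for aegs KO ALT and 7 for aegl KO ALT, and without the second DPBS library of Lung2, 1 for Aeg-S/L. The chrM share in Lung2 was 2.48% and 2.64% with Aeg-S/L, 2.87% and 3.69% with Aeg-S and 3.02% and 3.01% with Aeg-L, against 3.14% and 2.55% with DPBS.

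The proteins of Lung4 gave calls in both directions, in comparisons that share their DPBS libraries. Of 16 chrM rows, 10 rose and 1 fell with PlyA2EryB (32.8% and 31.9% of all genes), 6 rose and 5 fell with Lysenin (32% and 31.6%), and 6 rose and 6 fell with LSL (33.1% and 32.7%). Except for PlyA2EryB, these shares are near those of all genes. ENSMUSG00000065947.3 rose by 1.90 (PlyA2EryB), 1.44 (Lysenin) and 1.51 (LSL) on the log2 scale, ENSMUSG00000064367.1 by 1.05, 0.88 and 0.78, and ENSMUSG00000064363.1 at chrM:10167-11544 by 1.10, 0.73 and 0.62. ENSMUSG00000064351.1 fell with Lysenin by 0.39 and with LSL by 0.47, and was not called with PlyA2EryB (0.03).

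PlyA2EryB was then set against the other proteins, a comparison added after the values had been seen. In Lung4, 11 of 16 chrM rows were higher with PlyA2EryB than with Lysenin and 13 than with LSL, and 0 were lower, beside 11.7% and 17.5% of all genes higher. ENSMUSG00000064351.1 averaged 19567 ± 297 CPM with PlyA2EryB and 14701 ± 315 CPM with Lysenin (SD, n = 2 each), a log2 change of 0.41 ± 0.05 (edgeR, adjusted p = 9.49e-06). The count against Lysenin was 5 without the first PlyA2EryB or the first Lysenin library and 7 without the second Lysenin library, and that against LSL was 8 without the first PlyA2EryB library. In IL33KO2, 6 rows were higher than with Lysenin and 3 than with LSL, beside 5.44% and 11.9% of all genes. ENSMUSG00000064341.1 and ENSMUSG00000064370.1 were called in all 4 of these comparisons, at log2 changes of 0.28 to 0.66. In IL33KO2 the count against Lysenin was 0 or 1 and that against LSL 1 when any library was left out.

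Against DPBS in IL33KO2, 8 rows rose and 1 fell with PlyA2EryB (25.7% and 24.6% of all genes), 3 rose and 6 fell with Lysenin (20.7% and 18.9%), and 3 rose and 4 fell with LSL (19.5% and 17.9%). The row ENSMUSG00000064351.1 rose with PlyA2EryB by 0.61, and by 0.46 without the first DPBS library. Without the first and the second DPBS library in turn, the counts were 11 and 15 for PlyA2EryB, 13 and 14 for Lysenin, and 13 and 13 for LSL. Without a treated library they were 6 and 6 for PlyA2EryB, 2 and 6 for Lysenin, and 1 and 3 for LSL.

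In Rag2gc, 9 of 16 chrM rows rose and 0 fell with Aeg-S/L, beside 33.7% of all genes rising. The chrM share was 3.87% and 4.07% with Aeg-S/L, against 3.44% and 3.51% with DPBS. ENSMUSG00000064337.1 at chrM:70-1024 averaged 166 ± 18.2 CPM with Aeg-S/L and 90.3 ± 2.89 CPM with DPBS (SD, n = 2 each), a log2 change of 0.88 ± 0.07 (edgeR, adjusted p = 3.51e-06). The other rises ranged from 0.20 (ENSMUSG00000064363.1) to 0.63 (ENSMUSG00000064368.1). ENSMUSG00000064351.1 was not called (-0.04; edgeR, adjusted p = 0.61). The count was 6 without the first and 5 without the second Aeg-S/L library.

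In IL33KO1, 3 rows fell with ALT (0.518% of all genes) and 2 rose with Aeg-S/L (6.4%). ENSMUSG00000064354.1 fell with ALT by 1.48 and rose with Aeg-S/L by 0.64, ENSMUSG00000064357.1 fell by 1.11 and rose by 0.99, and ENSMUSG00000065947.3 fell with ALT by 1.82. These are rows of the low stretch named above. ENSMUSG00000064354.1 had 71.0 and 81.9 CPM per kilobase with ALT, 313 and 331 with Aeg-S/L, and 228 and 189 with DPBS. Its libraries spanned 49.7 to 105 CPM per kilobase in Lung1 to Lung3 and 206 to 356 in Lung4. The part of such differences between libraries in the changes of IL33KO1 was not tested. Without the second DPBS library 10 rows were called for each treatment. Without the first and second treated library in turn the counts were 0 and 1 for ALT and 0 and 0 for Aeg-S/L. The DPBS libraries of this experiment differed in chrM share (5.83% and 3.06%).

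As a share of the chrM counts, ENSMUSG00000064351.1 moved in different directions across the mouse experiments. The widest fall was in Lung4, where it held 45.8% and 47.4% with PlyA2EryB, 44.9% and 45.3% with Lysenin and 46.6% and 45.1% with LSL, against 57.0% and 54.3% with DPBS. In IL33KO2 the same proteins lay above DPBS, at 45.9% and 46.1% with PlyA2EryB, 47.4% and 45.0% with Lysenin and 46.3% and 44.9% with LSL, against 35.4% and 42.1% with DPBS. The treated groups of these experiments thus held like shares, and their DPBS libraries differed. In Rag2gc it held 40.7% and 38.6% with Aeg-S/L, against 45.8% and 44.8% with DPBS. In IL33KO1 it held 46.4% and 47.4% with Aeg-S/L and 36.9% and 36.9% with ALT, against 33.0% and 42.7% with DPBS. In Lung1 it held 34.3%, 36.2% and 34.8% with ALT, against 38.2%, 37.9% and 36.8% with DPBS. Shifts in Lung2 and Lung3 were smaller: 34.1% and 34.5% with Aeg-S/L, 36.2% and 35.9% with Aeg-S and 37.0% and 37.9% with Aeg-L, against 36.4% and 36.9% with DPBS in Lung2. In Lung3 it held 37.1% and 36.0% with aegs KO ALT, 37.0% and 36.0% with aegl KO ALT and 35.1% and 35.9% with WT ALT, against 36.3% and 37.5% with DPBS. This row was singled out after its values were seen, and the share was not tested.

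The minus-strand row ENSMUSG00000064368.1 at chrM:13552-14070 split the mouse libraries across experiments, and within IL33KO1 and IL33KO2. Its libraries spanned 1368 to 2538 CPM per kilobase in Lung1 to Lung3, 194 to 437 in Lung4 and 413 to 672 in Rag2gc. In IL33KO1 it had 1779 and 1535 with ALT, 458 and 407 with Aeg-S/L, and 3317 and 434 with DPBS. Treatment and this difference between libraries cannot be told apart in IL33KO1. It held 2.95% of the chrM counts in the first DPBS library of IL33KO1 and 0.736% in the second, 2.64% and 2.48% with ALT, and 0.588% and 0.522% with Aeg-S/L. In IL33KO2 it held 2.54% in the first DPBS library, above all others of that experiment. Against DPBS in IL33KO2 its log2 change was -1.79 with Lysenin and -1.35 with LSL, and -0.77 and -0.32 without that DPBS library. Its part in the results of the IL-33 KO experiments was not tested.

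**Figure D5:**
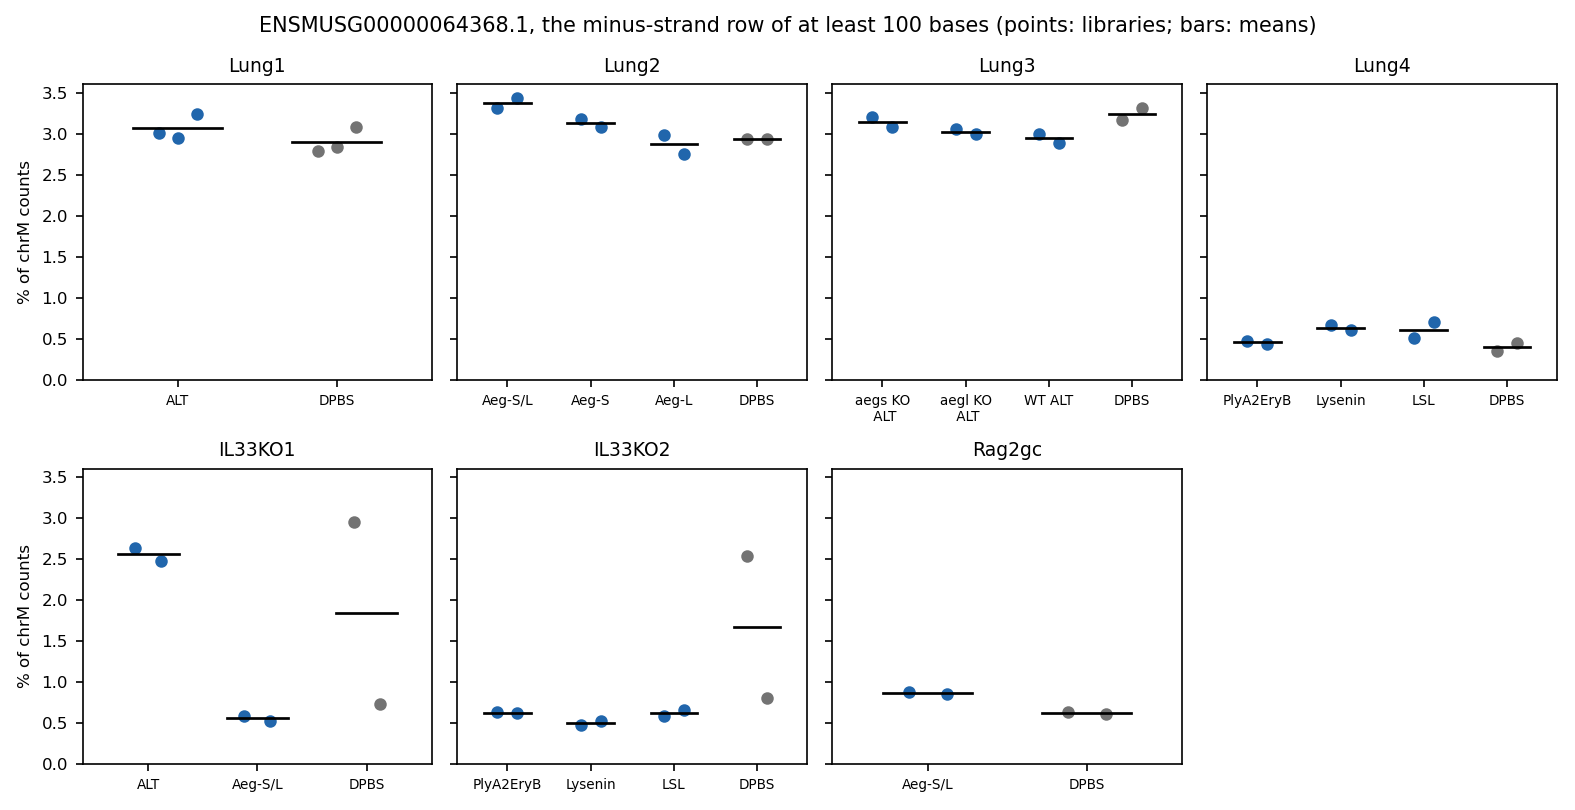
Percent of the chrM counts (y axis) held by the minus-strand row ENSMUSG00000064368.1 in each mouse library (points), by group and experiment (x axis). In IL33KO1 the first DPBS library (2.95%) lies with the ALT libraries (2.64% and 2.48%), and the second (0.736%) with the Aeg-S/L libraries (0.588% and 0.522%).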

How the data were processed

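RNA was sequenced from 51 libraries of human lines and 48 of mouse lung epithelial cells. Per the labels, RNA was taken with an RNAprep Pure kit and libraries were made with a NEBNext Ultra RNA kit. Per the submitters' processing notes, HISAT2 2.2.1, SAMtools, featureCounts 2.0.2, R 4.2.2 and DESeq2 1.36.0 were used with hg19 and mm10. The authors deposited whole counts per gene, which were used as deposited. The sources used here give no settings for strand or for fragments with several matches, and no rRNA depletion or poly(A) selection. Of the 99 count columns, 0 were left unused, and 2 lines without a gene ID were left out of Lung4. Names were found for 51996 of 57820 human and 0 of 55401 mouse IDs, so mouse genes, their lists and cell type markers were not named here. Library pairs of a group differed by a chi-square per degree of freedom of at least 3.93 (30 human pairs) or 2.81 (27 mouse pairs), more than sampling noise gives, and none was counted as a copy.

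Each table was fitted alone with edgeR 4.0.16 in R 4.3.3: filterByExpr, TMM scaling, 1 coefficient per group and the quasi-likelihood F test, with Benjamini-Hochberg adjustment over all genes. A standard error is the absolute log2 change over the square root of F. Means ± SD in CPM are TMM-scaled; CPM per kilobase and shares use the library total. Shares and make-up were not tested, since exact permutation tests cannot go below 0.33 (2 against 2) or 0.1 (3 against 3). All rows of at least 100 bases are named, shorter rows only where called, and up to 3 called members of each nuclear list with the largest changes. The members and lists were chosen with earlier results of these data known, so no list was tested.

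In H1437-1, libraries numbered 1 and 3 deviated together in ALT with Tra against DPBS (r = 0.466 and 0.374). For number 2, r was 0.121, beside 0.123 with a library of another number. The numbers were taken to pair the libraries of this comparison, from the data and not the labels. Elsewhere libraries of the same number were taken to share only a number. Alternatives were DESeq2 1.42.0, its size factors, scaling without chrM rows, no low-count filter, a replicate block and leaving out each library, where a lone library was assumed to vary like the other groups. Scaling to the chrM total, joint fits of 2 tables and the comparisons between proteins were added after the data were seen.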

Additional observations from a re-analysis of the deposited data

Results flagged for a closer look

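In joint fits of a NCI-H292 and a NCI-H1437 table with edgeR, 3 of 6 contrasts had a share of differing chrM genes well above that of all genes. For Aeg-S/L against DPBS, 12 of 16 chrM genes differed between the lines (1 higher and 11 lower in NCI-H292), beside 14.3% of all genes. For BAPTA-AM with Aeg-S/L against Aeg-S/L, all 16 were lower in NCI-H292, beside 11%, and for aegs KO ALT against WT ALT 8 were higher, beside 7.79%. In the other contrasts the chrM genes were called about as often as all genes or less. These were EGTA with Aeg-S/L against Aeg-S/L (3 of 16, beside 14.4%), WT ALT against DPBS (1 of 16, MT-ND4L, lower in NCI-H292, beside 8.9%) and aegl KO ALT against WT ALT (0 of 16, beside 5.79%). The unadjusted p of edgeR was under 0.05 for 4, 9 and 6 chrM genes in these 3 contrasts. The few calls therefore do not show that the lines changed alike. Line, experiment and deposited table cannot be told apart in these fits.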

How the results depend on the processing

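The depth limits what the low rows (MT-ATP8, MT-TP and the mouse rows between bases 7013 and 10173) can show, and 2 libraries a group leave many calls to 1 library. The 16 falls with BAPTA-AM held under every alternative in H292-2. In H1437-3 they did so too, with 15 against DPBS when some single libraries were left out. Scaling without chrM rows moved 0 of the 50 counts of called chrM genes by over 1.5 times, and DESeq2 size factors moved 1: Lung3 WT ALT against DPBS gave 0 in place of 1. Below, each count comes first and that of edgeR with all libraries is in brackets, and treatments without a named partner are against DPBS. The cause of a moved count was not tested, except that leaving out a library lowers the number of samples. Of the 50 differences in chrM share, 11 moved by more than the spread of libraries without the 10 most counted nuclear rows.

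DESeq2's own test moved 13 counts. In human cells these were 1 (0) for H1437-1 ALT, 1 (0) for ALT with Tra against ALT, 1 (0) for H1437-2 Aeg-S/L, 0 (1) for each KO extract in H1437-4, 4 (11) for aegs KO ALT and 3 (11) for aegl KO ALT against WT ALT there, and 5 (8) for H292-1 WT ALT. In mouse cells they were 2 (1) for Lung3 WT ALT, 2 (1) for Lung3 aegl KO ALT against WT ALT, 4 (2) for IL33KO1 Aeg-S/L, 6 (11) for PlyA2EryB against Lysenin in Lung4 and 5 (3) for PlyA2EryB against LSL in IL33KO2.

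Without the low-count filter 22 counts moved, all upward. In H1437-1 they were 2 (0) for ALT, 2 (0) for ALT with Tra and 3 (0) for ALT with Tra against ALT. In H1437-2 they were 14 (0) for Aeg-S, 5 (0) for Aeg-S/L and 4 (0) for Aeg-S/L with Tra against Aeg-S/L. H1437-3 gave 7 (1) for EGTA, and H1437-4 gave 14 (1) for aegs KO ALT and 15 (1) for aegl KO ALT. H292-1 gave 15 (8) for WT ALT, 15 (0) for aegl KO ALT, 14 (7) for aegs KO ALT against WT ALT and 12 (3) for aegl KO ALT against WT ALT. In mouse cells they were 1 (0) for Lung2 Aeg-S/L, 3 (1) each for Lung3 WT ALT and both KO extracts against WT ALT, 6 (3) for IL33KO1 ALT, 6 (2) for IL33KO1 Aeg-S/L, and 11 (7) for LSL, 11 (6) for PlyA2EryB against Lysenin and 10 (3) for PlyA2EryB against LSL in IL33KO2.

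With the replicate number as a block, 7 of 45 counts moved: 0 (1) for Lung3 WT ALT, 1 (0) for H1437-1 ALT, 2 (0) for ALT with Tra against ALT, 2 (1) for H1437-3 EGTA, 7 (1) for aegs KO ALT and 6 (1) for aegl KO ALT in H1437-4, and 1 (2) for IL33KO1 Aeg-S/L. In the paired comparison, ALT with Tra against DPBS in H1437-1, the block gave 0 as without it. Same-numbered libraries of Lung2 Aeg-S and DPBS deviated in opposite ways (r = -0.24), and with crossed numbers the block gave 0 calls, as without it. Those of H292-1 aegs KO ALT and DPBS deviated together (r = 0.256), and the block gave 0 there, as without it. In the other comparisons with 2 numbers r lay between -0.098 and 0.0867. No paired analysis was possible because the columns carry no numbers for Lysenin and PlyA2EryB in IL33KO2 and for DPBS in Rag2gc.

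Leaving out each library in turn gave these lowest and highest counts where any moved. In H1437-1 ALT had 0 and 6 (0). In H1437-2 Aeg-S had 0 and 15 (0) and Aeg-S/L 0 and 1 (0). In H1437-3 EGTA had 0 and 2 (1). In H1437-4 WT ALT had 4 and 12 (6), each KO extract 0 and 13 (1), and against WT ALT aegs KO ALT had 4 and 13 (11) and aegl KO ALT 4 and 10 (11). In H292-1 WT ALT had 3 and 6 (8), aegl KO ALT 0 and 10 (0), and against WT ALT aegs KO ALT had 2 and 8 (7) and aegl KO ALT 1 and 12 (3). In H292-2 Aeg-S/L had 6 and 11 (10). In Lung2 Aeg-S/L had 0 and 1 (0). In Lung3 WT ALT had 0 and 5 (1), aegs KO ALT 0 and 4 (0), aegl KO ALT 0 and 7 (0), and each against WT ALT 0 throughout (1). In IL33KO1 ALT had 0 and 10 (3) and Aeg-S/L 0 and 10 (2), and in Rag2gc Aeg-S/L had 5 and 11 (9). PlyA2EryB had 5 and 9 (11) against Lysenin and 8 and 13 (13) against LSL in Lung4, and 0 and 1 (6) and 1 throughout (3) in IL33KO2. Against DPBS in IL33KO2 Lysenin had 2 and 14 (9), PlyA2EryB 6 and 15 (9) and LSL 1 and 13 (7).

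A log2 change turned its direction for 26 pairs of gene and comparison, in each case without 1 library and with a call on at least 1 side. Lowest and highest values for WT ALT in H1437-4 were -0.47 and 0.75 (MT-ND1), -0.43 and 0.75 (MT-ATP6), -0.39 and 0.57 (MT-ND4L), -0.49 and 0.56 (MT-ND4) and -0.50 and 0.81 (MT-CYB). For aegl KO ALT against WT ALT in H292-1 they were -1.27 and 1.05 (MT-ND1), -1.20 and 1.32 (MT-CO2), -1.91 and 0.71 (MT-ATP6), -1.30 and 1.19 (MT-CO3), -0.83 and 1.54 (MT-ND4), -1.22 and 1.34 (MT-ND5) and -1.94 and 0.96 (MT-CYB). For EGTA against Aeg-S/L in H292-2 they were -0.25 and 0.21 (MT-CO1). For ALT in IL33KO1 they were -0.96 and 1.80 (ENSMUSG00000064368.1). In Lung4, ENSMUSG00000064358.1 had -0.23 and 0.47 (Lysenin), -0.25 and 0.46 (PlyA2EryB) and -0.33 and 0.38 (LSL), and ENSMUSG00000064370.1 had -0.13 and 0.18 (Lysenin) and -0.24 and 0.081 (LSL). There, ENSMUSG00000064351.1 had -0.085 and 0.11 (PlyA2EryB) and ENSMUSG00000064345.1 had -0.20 and 0.26 (LSL). In IL33KO2, ENSMUSG00000064337.1 had -1.09 and 0.22 (Lysenin), -0.56 and 0.75 (PlyA2EryB) and -0.81 and 0.51 (LSL), and ENSMUSG00000064341.1 had -0.12 and 0.13 (Lysenin) and -0.10 and 0.15 (LSL).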

Other observations

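Other nuclear gene lists of the mitochondrion were measured beside the chrM genes. With BAPTA-AM and Aeg-S/L against Aeg-S/L alone, the 11 genes of mitochondrial calcium uptake had a median log2 change of -0.0065 in H292-2 and of -0.0048 in H1437-3. All 11 missed edgeR's threshold in H292-2 and 2 rose in H1437-3, beside 17.6% and 11.6% of all genes rising. Of 13 genes for replicating and keeping mitochondrial DNA, 4 rose and 3 fell in H292-2, and 1 rose and 2 fell in H1437-3, where 20.3% (H292-2) and 16.1% (H1437-3) of all genes fell. Of 8 regulators of mitochondrial biogenesis, 0 rose and 5 fell in H292-2, and 1 rose and 3 fell in H1437-3. PPARGC1A, a coactivator of that programme, had 26.4 CPM with BAPTA-AM, against 54.7 CPM with Aeg-S/L alone, in H1437-3. Of 13 genes of mitophagy and mitochondrial stress, 2 rose and 6 fell in H292-2, and 2 rose and 4 fell in H1437-3. CLPX, a subunit of a mitochondrial protease, rose by 0.64 on the log2 scale in H292-2 and by 0.51 in H1437-3.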
